A study of Mus musculus with 18 samples.

Results

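The Wnt module described here comprises the genes for secreted Wnt ligands, their Frizzled receptors, the co-receptors *Lrp5* and *Lrp6*, the secreted Sfrp and Dkk antagonists, the R-spondins, and the intracellular components *Apc*, *Axin1*, *Axin2*, *Ctnnb1*, *Lef1*, *Tcf7*, *Tcf7l1* and *Tcf7l2*. Members were chosen by gene symbol, which gave 51 genes of the 55153 in the RNA-seq table. Wnt ligands bind Frizzled receptors together with Lrp5 or Lrp6, and this binding inhibits the destruction complex, in which Apc and the axins promote the degradation of β-catenin, the product of *Ctnnb1*. Stabilised β-catenin enters the nucleus and acts with TCF/LEF factors on target genes. In the embryonic telencephalon, Wnt ligands from the cortical hem pattern the hippocampus and dorsal cortex, and β-catenin signaling is known to regulate the division of cortical progenitors.

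RNA-seq and Ribo-seq, which sequences the mRNA fragments protected by ribosomes, were carried out on the cerebral cortex of E15.5 embryos labelled as C57BL/6. The groups were wild type (Ctrl), *Fto* f/f with *Emx1-Cre* (*F*-cKO) and *Mettl3* f/f with *Emx1-Cre* (*M*-cKO), and each group had 3 RNA-seq and 3 Ribo-seq libraries, 18 in total. *Fto* encodes an RNA demethylase and *Mettl3* the catalytic subunit of the m6A methyltransferase, and the comparisons ask how loss of either enzyme changes RNA abundance and ribosome occupancy. *Emx1-Cre* is active in the cerebral cortex and deletes exon 3 of *Fto* or exons 2 and 3 of *Mettl3*, and cells of other origin in the tissue keep both genes. By the study's methods the floxed mice had a mixed background of C57/BL6 and another strain, and the Cre mice a C57/BL6 background. The labels do not say whether Ctrl embryos carried Cre or a floxed allele, or how many embryos a library held, and the wording of the methods does not make clear whether the Ribo-seq samples shared a litter. Counted reads per RNA-seq library were between 18504094 and 22592406. Counted fragments per Ribo-seq library were between 30081796 and 35853227 in Ctrl, 10973699 and 32954317 in *F*-cKO, and 13764136 and 21725348 in *M*-cKO. Levels are given as deposited, as FPKM (fragments scaled to gene length and library size) for RNA-seq and as RPKM, the matching unit for footprints, for Ribo-seq. Differences are log2 fold changes with their standard error (SE) from edgeR, 3 libraries against 3, and a gene was called higher or lower when its Benjamini-Hochberg adjusted *P* over all genes tested was below 0.05.

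The targeted genes were examined first. *Mettl3* RNA was at 5.84, 6.43 and 5.07 FPKM in Ctrl and at 8.61, 7.82 and 8.34 FPKM in *M*-cKO, so the lowest *M*-cKO value exceeded the highest Ctrl value (log2 fold change 0.50 ± 0.09 SE, edgeR adjusted *P* = 0.00221). Whole-gene counts include the exons that the Cre allele leaves in place and do not show the deletion itself. Footprints on *Mettl3* were at 9.16, 9.25 and 9.93 RPKM in Ctrl and fell to 6.78, 6.02 and 6.40 RPKM in *M*-cKO (log2 fold change −0.55 ± 0.10, edgeR adjusted *P* = 0.0157). This call ended without Ctrl replicate 1, 2 or 3 (adjusted *P* = 0.0542, 0.0804 and 0.0624). *Fto* RNA was at 10.8, 11.2 and 8.37 FPKM in Ctrl and at 3.26, 7.56 and 2.43 FPKM in *F*-cKO (log2 fold change −1.21 ± 0.33, edgeR adjusted *P* = 0.0298). *F*-cKO replicate 2 of RNA-seq was thus closest to Ctrl in its *Fto* level, although it did not overlap with the Ctrl range, and without it the value was −1.84 ± 0.16 (adjusted *P* = 0.0142). The call of *Fto* RNA ended without Ctrl replicate 1, 2 or 3 or *F*-cKO replicate 1 (adjusted *P* = 0.0803, 0.0758, 0.0553 and 0.0714). *Fto* footprints were at 25.9, 22.0 and 17.6 RPKM in Ctrl and at 3.91, 2.11 and 4.04 RPKM in *F*-cKO, and with a log2 fold change of −2.67 ± 0.25 the edgeR adjusted *P* was 0.350. Without *F*-cKO replicate 2 of Ribo-seq the value was −2.48 ± 0.18 (edgeR adjusted *P* = 0.0358), and *Fto* was then called. A two-sided exact permutation test gave *P* = 0.1 for each of these 4 differences, the smallest value that 3 against 3 libraries allow.

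Markers of the dorsal telencephalon were present in every library. All 8 genes of that list exceeded 1 FPKM in Ctrl, and *Neurod6*, a factor of cortical excitatory neurons, was the most abundant at 328, 313 and 320 FPKM in Ctrl, 354, 339 and 374 FPKM in *F*-cKO and 362, 375 and 351 FPKM in *M*-cKO. The summed level of the list was 872, 879 and 810 FPKM in Ctrl, 929, 980 and 988 FPKM in *F*-cKO and 1042, 1063 and 1054 FPKM in *M*-cKO. In *F*-cKO 4 of the 8 genes were called higher (*Emx2*, *Tbr1*, *Eomes* and *Pax6*) and in *M*-cKO 3 (*Tbr1*, *Neurod6* and *Neurod2*), and none of the others was called lower. A change in the number of cells of a type and a change in RNA per cell cannot be told apart in these bulk libraries, so that fewer cells of a type would look like less RNA per cell. Among the Ribo-seq libraries, *F*-cKO replicate 2 stood apart. It held the fewest counted fragments, 10973699, and its median correlation with the other libraries of its group across genes was 0.877, against 0.922 and 0.924 for replicates 1 and 3 and at least 0.985 in Ctrl. The members' Ribo-seq counts and medians in *F*-cKO are therefore given with and without it.

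In Ctrl cortices, 26 of the 51 members had a mean RNA level of at least 1 FPKM. *Ctnnb1* was by far the most abundant member at 150 ± 12.4 FPKM (SD, n = 3). Of the 19 ligands 6 reached 1 FPKM, led by *Wnt7b* at 37.3 ± 1.82 FPKM and *Wnt7a* at 11.7 ± 1.17 FPKM, which are both known as ligands made by the cortical neuroepithelium and its neurons. Of the 10 Frizzled receptors 6 reached 1 FPKM, led by *Fzd1* at 16.1 ± 2.33 FPKM and *Fzd3*, a receptor known for its role in axon tract formation, at 13.2 ± 0.982 FPKM. *Lrp6* (5.66 ± 0.348 FPKM) exceeded *Lrp5* (3.08 ± 0.348 FPKM). Among the antagonists *Sfrp1* was at 31.7 ± 2.40 FPKM and *Dkk3* at 18.3 ± 2.83 FPKM, among the R-spondins *Rspo3* was highest at 8.12 ± 1.14 FPKM, and in the destruction complex *Apc* was highest at 28.2 ± 2.02 FPKM. The TCF/LEF factors were low, with *Tcf7* at 2.33 ± 0.269 FPKM, *Tcf7l1* at 1.74 ± 0.587 FPKM, *Lef1* at 0.988 ± 0.166 FPKM and *Tcf7l2* at 0.757 ± 0.111 FPKM. Below the filter on low counts in every RNA-seq comparison were 11 members, namely *Dkk1*, *Dkk4*, *Rspo4*, *Sfrp5*, *Wnt1*, *Wnt10b*, *Wnt11*, *Wnt16*, *Wnt2*, *Wnt8a* and *Wnt9b*. Their mean Ctrl levels were between 0 FPKM for *Wnt8a* and 0.185 FPKM for *Sfrp5*. With no filter on low counts, edgeR called 0 of them in the 3 RNA-seq comparisons, and DESeq2 was not run that way. An unadjusted *P* below 0.05 was found for 1 of them, *Dkk1* in *M*-cKO (log2 fold change 1.57 ± 0.69, edgeR adjusted *P* = 0.107). *Dkk1* was at 0.0735, 0.0389 and 0.0440 FPKM in Ctrl, 0.0806 to 0.172 FPKM in *F*-cKO and 0.109 to 0.224 FPKM in *M*-cKO, with all 6 knockout libraries above Ctrl and at most 11 reads in any library.

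In *F*-cKO, RNA of 15 of 39 members tested was higher than in Ctrl and that of 2 was lower, and their median log2 fold change was 0.33 against −0.01 over all 16944 genes tested. Over all genes 21.1% were called, 11.5% higher and 9.57% lower. In *M*-cKO, 12 of 40 members were higher and 2 lower, with a median log2 fold change of 0.26 against −0.01 over all 16968 genes, of which 29.6% were called, 15.5% higher and 14.1% lower. Both comparisons use the same Ctrl libraries, so their values are given side by side and are not independent of each other. Called higher in both were *Lrp5*, *Lrp6*, *Fzd2*, *Fzd8*, *Fzd9*, *Wnt8b*, *Rspo1* and *Tcf7l1*, and *Dkk3* was called lower in both. When *M*-cKO was compared with *F*-cKO directly, 6 of 40 members were higher and 7 lower in *M*-cKO with a median log2 fold change of −0.04, beside 27.4% of all 16802 genes (13.1% higher and 14.3% lower). *Fzd6* entered the *M*-cKO comparisons through the *M*-cKO libraries, the group in which it reached 10 counts, and it was not called. Without *F*-cKO replicate 2 of RNA-seq, the library with most *Fto* RNA of its group, 11 members were higher and 2 lower in *F*-cKO, beside 11.3% of all genes. Without Ctrl replicate 3, 10 members were higher and 2 lower in *F*-cKO, beside 8.92% of all genes, and 9 higher and 1 lower in *M*-cKO, beside 20.5%. In the direct comparison 4 members were higher and 4 lower without *M*-cKO replicate 1, beside 1754 higher and 1498 lower genes, where all libraries gave 2196 and 2403. There, leaving out *F*-cKO replicate 2 gave 4 higher and 6 lower members, beside 1442 higher and 1325 lower genes.

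**Figure D1:**
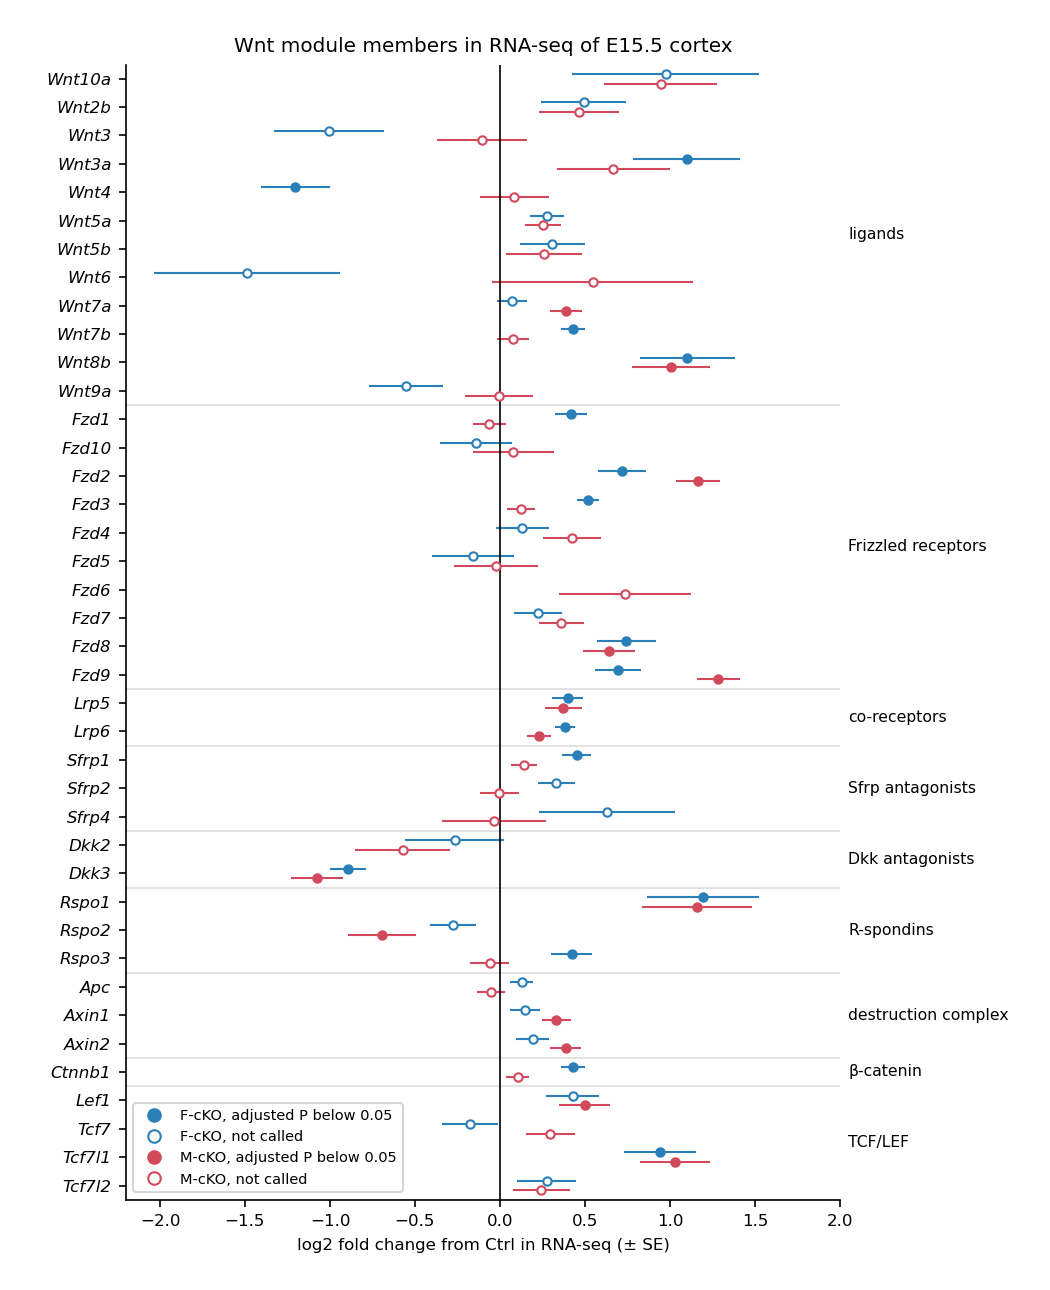
Log2 fold change from Ctrl in RNA-seq with its SE for each of the 40 members tested, grouped by role, in *F*-cKO (blue) and *M*-cKO (red), with filled points for members called at an adjusted *P* below 0.05 and open points for the others. *Fzd2*, *Fzd8* and *Fzd9* lie to the right of 0 in both knockouts and *Dkk3* to the left, while *Wnt4* is at −1.20 in *F*-cKO and 0.08 in *M*-cKO.

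Among the ligands, 12 of 19 were tested, and 3 were higher and 1 lower in *F*-cKO, beside 21.1% of all genes called, while 2 were higher and 0 lower in *M*-cKO, beside 29.6%. *Wnt4* (chr4:137277635-137299501), a ligand also known from kidney and gonad development, was at 1.05, 1.10 and 1.30 FPKM in Ctrl, at 0.579, 0.420 and 0.508 FPKM in *F*-cKO and at 0.893, 1.46 and 1.33 FPKM in *M*-cKO. All *F*-cKO libraries lay below all others, and the *M*-cKO range enclosed that of Ctrl. *Wnt4* fell in *F*-cKO by 1.20 ± 0.20 on the log2 scale (edgeR adjusted *P* = 0.00517) and was 1.28 ± 0.24 higher in *M*-cKO than in *F*-cKO (adjusted *P* = 0.00383). Neither call ended when any single library was left out.

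*Wnt8b* (chr19:44493472-44514273), a ligand of the cortical hem and hippocampal primordium, was at 1.19, 1.22 and 0.696 FPKM in Ctrl, at 1.63, 2.01 and 3.10 FPKM in *F*-cKO and at 1.71, 2.04 and 2.56 FPKM in *M*-cKO. Every knockout library exceeded every Ctrl library. The log2 fold change was 1.10 ± 0.28 in *F*-cKO (edgeR adjusted *P* = 0.0229) and 1.01 ± 0.23 in *M*-cKO (adjusted *P* = 0.00711). In *F*-cKO the call ended without Ctrl replicate 3, *F*-cKO replicate 2 or *F*-cKO replicate 3, at adjusted *P* values of 0.0761, 0.0510 and 0.0538. *Wnt3a*, the hem ligand that is required for growth of the hippocampus (chr11:59248036-59290751), was at 0.582, 0.478 and 0.329 FPKM in Ctrl, at 0.898, 0.726 and 1.39 FPKM in *F*-cKO and at 0.431, 0.915 and 0.901 FPKM in *M*-cKO. *F*-cKO did not overlap with Ctrl, whereas *M*-cKO did. Its log2 fold change of 1.10 ± 0.32 in *F*-cKO (edgeR adjusted *P* = 0.0356) was no longer called without Ctrl replicate 1, 2 or 3 or *F*-cKO replicate 3, with adjusted *P* values of 0.0519, 0.0794, 0.125 and 0.104, and the value in *M*-cKO was 0.67 ± 0.33 (adjusted *P* = 0.154). *Wnt3a* was not called between the knockouts (−0.44 ± 0.34, adjusted *P* = 0.353).

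Markers of the cortical hem and choroid plexus varied widely between libraries. The summed RNA level of 10 such genes was 71.9, 807 and 318 FPKM in Ctrl, 395, 276 and 386 FPKM in *F*-cKO and 437, 511 and 599 FPKM in *M*-cKO, of which the choroid plexus gene *Ttr* made up 68.1, 788 and 312 FPKM in the Ctrl libraries. In *F*-cKO 0 of the 7 tested were called by edgeR (median log2 fold change −0.07), 0 had an unadjusted *P* below 0.05 and DESeq2 called 0, and *Otx2* (log2 fold change 0.92 ± 0.29) was called higher among 9 in *M*-cKO (median 0.66). In *M*-cKO against *F*-cKO, 3 of 9 were called higher (*Ttr*, *Kl* and *Msx1*) and 0 lower, with a median of 0.54. Of all genes 27.4% were called in that comparison. Of the 10 genes 5 reached 1 FPKM in Ctrl. In the hippocampal list of 6 genes, with *Lhx2* as the most abundant at 84.8, 87.8 and 72.5 FPKM in Ctrl, both knockouts had more *Lhx9* (0.82 ± 0.18 in *F*-cKO, 0.65 ± 0.16 in *M*-cKO) and less *Etv4* (−0.93 ± 0.14 and −1.07 ± 0.14), and *Lhx2* was also higher in *M*-cKO (0.29 ± 0.09). The summed level of that list was 116, 118 and 106 FPKM in Ctrl, 115, 127 and 132 FPKM in *F*-cKO and 126, 121 and 140 FPKM in *M*-cKO. No gene of either list was at 0 in all libraries. The part of the amount of medial tissue in the values of *Wnt8b* and *Wnt3a* was not tested.

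The most abundant ligands changed by less. *Wnt7b* rose in *F*-cKO by a log2 fold change of 0.43 ± 0.07 (edgeR adjusted *P* = 0.00459), and its value in *M*-cKO was 0.07 ± 0.09. *Wnt7a* rose in *M*-cKO by 0.39 ± 0.09 (adjusted *P* = 0.00896), and its value in *F*-cKO was 0.07 ± 0.09. Compared directly, *Wnt7b* was lower in *M*-cKO than in *F*-cKO (−0.37 ± 0.10, adjusted *P* = 0.0228) and *Wnt7a* higher (0.31 ± 0.08, adjusted *P* = 0.0167). The first of these direct calls ended without *F*-cKO replicate 1, *M*-cKO replicate 1 or *M*-cKO replicate 2, with adjusted *P* values of 0.0578, 0.0856 and 0.0950. That of *Wnt7a* ended without *F*-cKO replicate 2, *M*-cKO replicate 1 or *M*-cKO replicate 2, with adjusted *P* values of 0.0519, 0.0626 and 0.0598.

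*Wnt6* (chr1:74754342-74785322) was at 0.285, 0.904 and 0.341 FPKM in Ctrl, 0.244, 0.0892 and 0.211 FPKM in *F*-cKO and 0.161, 0.971 and 1.13 FPKM in *M*-cKO. Its libraries spread widely within groups, and *M*-cKO replicate 1 was among the low ones. *Wnt6* was called higher in *M*-cKO than in *F*-cKO (log2 fold change 2.02 ± 0.64, edgeR adjusted *P* = 0.0381), a call that ended without *F*-cKO replicate 2 or 3 or *M*-cKO replicate 2 or 3, with adjusted *P* values of 0.128, 0.0597, 0.112 and 0.152. Against Ctrl its value was −1.49 ± 0.55 in *F*-cKO (adjusted *P* = 0.0799). The neighbouring gene *Wnt10a* (chr1:74792019-74804176) was at 0.98 ± 0.55 in *F*-cKO (adjusted *P* = 0.235) and 0.95 ± 0.33 in *M*-cKO (adjusted *P* = 0.0515). *Wnt9a* (chr11:59306849-59333552), which neighbours *Wnt3a*, was at −0.55 ± 0.22 in *F*-cKO (adjusted *P* = 0.101) and −0.01 ± 0.20 in *M*-cKO. *Wnt3* was at −1.004 ± 0.32 in *F*-cKO (adjusted *P* = 0.0529) and *Wnt5a* at 0.28 ± 0.10 (adjusted *P* = 0.0741). The main edgeR fit of each comparison, with all its libraries and the filter on low counts, called neither. DESeq2 called *Wnt3* in *F*-cKO (adjusted *P* = 0.0381), and edgeR without *F*-cKO replicate 2 called it higher in *M*-cKO than in *F*-cKO (1.18 ± 0.35, adjusted *P* = 0.0495).

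Markers of meninges and mesenchyme, tissues that cover the cortex, also varied between libraries. Their summed RNA level over 10 genes was 17.5, 34.4 and 18.8 FPKM in Ctrl, 13.0, 5.40 and 14.0 FPKM in *F*-cKO and 10.8, 36.0 and 43.7 FPKM in *M*-cKO, and no gene was at 0. The collagen gene *Col3a1* was the most abundant of them, at 2.75, 5.61 and 2.99 FPKM in Ctrl, 1.75, 0.702 and 2.87 FPKM in *F*-cKO and 1.69, 6.14 and 7.85 FPKM in *M*-cKO. In *F*-cKO 4 of the 10 were called lower (*Col1a1*, *Col1a2*, *Foxc1* and *Aldh1a2*) with a median log2 fold change of −1.19, in *M*-cKO 0 were called by edgeR with a median of 0.19 (0 with an unadjusted *P* below 0.05, and 0 by DESeq2), and 5 were higher in *M*-cKO than in *F*-cKO with a median of 1.43. Of all genes 9.57% were called lower in *F*-cKO, and 13.1% higher in *M*-cKO than in *F*-cKO. Ctrl replicate 1, *F*-cKO replicate 2 and *M*-cKO replicate 1 were the lowest libraries of their groups in *Wnt4*, *Wnt6* and the meningeal list. The highest libraries differed in part. For the list they were Ctrl replicate 2, *F*-cKO replicate 3 and *M*-cKO replicate 3. For *Wnt4* they were Ctrl replicate 3, *F*-cKO replicate 1 and *M*-cKO replicate 2, and for *Wnt6* Ctrl replicate 2, *F*-cKO replicate 1 and *M*-cKO replicate 3. The part of meningeal tissue in the differences of these ligands was not tested.

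Several receptors rose in both knockouts, and against Ctrl none was called lower by edgeR. Of the Frizzled genes, 5 of 9 were higher in *F*-cKO and 3 of 10 in *M*-cKO, beside 11.5% and 15.5% of all genes, with median log2 fold changes of 0.42 and 0.39. *Fzd2* (chr11:102604431-102608058), a receptor known for both canonical and non-canonical Wnt signaling, was at 12.8, 14.3 and 9.01 FPKM in Ctrl, 18.4, 19.7 and 21.7 FPKM in *F*-cKO and 25.9, 28.3 and 27.3 FPKM in *M*-cKO. The 3 groups did not overlap and were ordered Ctrl, *F*-cKO, *M*-cKO. Its log2 fold change was 0.72 ± 0.14 in *F*-cKO (edgeR adjusted *P* = 0.00937) and 1.17 ± 0.13 in *M*-cKO (adjusted *P* = 0.000110), and *M*-cKO exceeded *F*-cKO by 0.44 ± 0.08 (adjusted *P* = 0.00273). *Fzd9* (chr5:135248938-135251047), a receptor of neural progenitors, was at 6.40, 5.63 and 4.85 FPKM in Ctrl, 7.86, 9.66 and 10.1 FPKM in *F*-cKO and 13.2, 12.2 and 16.1 FPKM in *M*-cKO. These groups were ordered in the same way without overlap, with log2 fold changes of 0.70 ± 0.13 in *F*-cKO (adjusted *P* = 0.00818) and 1.28 ± 0.13 in *M*-cKO (adjusted *P* = 6.47e-05), and with 0.58 ± 0.13 between the knockouts (adjusted *P* = 0.00831). All 6 calls held with each library left out in turn.

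*Fzd8*, a receptor of telencephalic progenitors, was at 6.39, 6.05 and 3.74 FPKM in Ctrl, 8.67, 8.23 and 10.4 FPKM in *F*-cKO and 8.24, 8.94 and 8.27 FPKM in *M*-cKO. Both knockouts lay above Ctrl and overlapped each other. The log2 fold change was 0.74 ± 0.17 in *F*-cKO (edgeR adjusted *P* = 0.0171) and 0.64 ± 0.15 in *M*-cKO (adjusted *P* = 0.00935). *Fzd3* (chr14:65192441-65262463) was at 14.3, 12.4 and 13.0 FPKM in Ctrl, 19.1, 18.6 and 19.5 FPKM in *F*-cKO and 15.6, 15.1 and 12.8 FPKM in *M*-cKO. *F*-cKO stood above both other groups, which overlapped. Its log2 fold change was 0.52 ± 0.06 in *F*-cKO (adjusted *P* = 0.00293) and 0.12 ± 0.08 in *M*-cKO, which was lower than *F*-cKO by a log2 value of −0.41 ± 0.08 (adjusted *P* = 0.00455). *Fzd1* was likewise highest in *F*-cKO, with 0.42 ± 0.09 in *F*-cKO (adjusted *P* = 0.0153), −0.06 ± 0.10 in *M*-cKO and −0.49 ± 0.07 between them (adjusted *P* = 0.000674). *Fzd4* and *Fzd7* were at 0.42 ± 0.17 (adjusted *P* = 0.0845) and 0.36 ± 0.13 (adjusted *P* = 0.0629) in *M*-cKO by edgeR, and DESeq2 called *Fzd7* (adjusted *P* = 0.0300).

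Both co-receptor genes were called higher in both knockouts. *Lrp6* was at a log2 fold change of 0.38 ± 0.06 in *F*-cKO (edgeR adjusted *P* = 0.00443) and 0.23 ± 0.07 in *M*-cKO (adjusted *P* = 0.0288), and *Lrp5* at 0.40 ± 0.09 (adjusted *P* = 0.0158) and 0.37 ± 0.11 (adjusted *P* = 0.0253). In all 4 cases the knockout libraries lay above the Ctrl libraries. The *Lrp6* call in *M*-cKO ended without Ctrl replicate 2, Ctrl replicate 3, *M*-cKO replicate 1 or *M*-cKO replicate 2, with adjusted *P* values of 0.0798, 0.0825, 0.108 and 0.0874. For *Lrp5* the *F*-cKO call ended without Ctrl replicate 3 or *F*-cKO replicate 2 (adjusted *P* = 0.0517 and 0.0591), and the *M*-cKO call without Ctrl replicate 1, Ctrl replicate 3 or *M*-cKO replicate 3 (adjusted *P* = 0.0724, 0.0827 and 0.0798).

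**Figure D2:**
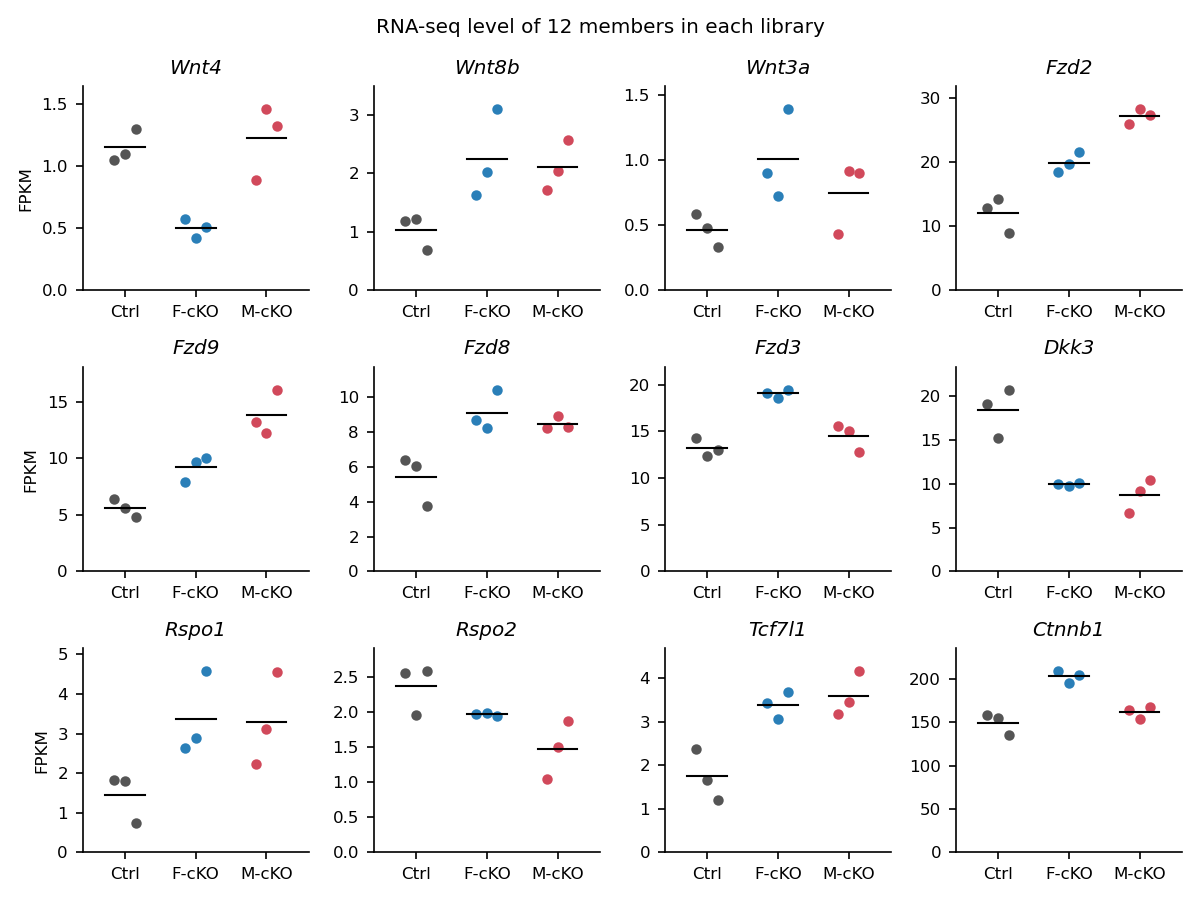
RNA level in FPKM of 12 members in each library of Ctrl (grey), *F*-cKO (blue) and *M*-cKO (red), with a line at the group mean. The groups of *Fzd2* and *Fzd9* are ordered Ctrl, *F*-cKO, *M*-cKO without overlap, *Wnt4* is low in *F*-cKO at 0.420 to 0.579 FPKM, and *Dkk3* is low in both knockouts.

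Among the antagonists, *Dkk3* (chr7:112116019-112159482), a divergent member of the Dickkopf family, was lower in both knockouts. It was at 19.1, 15.2 and 20.7 FPKM in Ctrl, 9.95, 9.78 and 10.1 FPKM in *F*-cKO and 6.68, 9.20 and 10.4 FPKM in *M*-cKO, so that every knockout library was below every Ctrl library. *Dkk3* fell by 0.89 ± 0.11 on the log2 scale in *F*-cKO (edgeR adjusted *P* = 0.00293) and by 1.08 ± 0.15 in *M*-cKO (adjusted *P* = 0.000463), and both calls held with each library left out in turn. *Dkk2*, at 0.445 ± 0.0885 FPKM in Ctrl, had values of −0.27 ± 0.29 and −0.57 ± 0.28 and was not called. *Sfrp1*, which binds Wnt ligands outside the cell and is abundant in cortical progenitors, rose in *F*-cKO by 0.45 ± 0.09 (adjusted *P* = 0.00782), with 0.14 ± 0.08 in *M*-cKO. In *M*-cKO it was lower than in *F*-cKO by a log2 value of −0.32 ± 0.09 (adjusted *P* = 0.0227), and *Sfrp2* by −0.35 ± 0.09 (adjusted *P* = 0.0219). Against Ctrl *Sfrp2* was at 0.33 ± 0.11 in *F*-cKO, which edgeR did not call (adjusted *P* = 0.0567) and DESeq2 did (adjusted *P* = 0.04965). The direct *Sfrp1* call ended without *F*-cKO replicate 3, *M*-cKO replicate 1 or *M*-cKO replicate 3 (adjusted *P* = 0.0633, 0.0961 and 0.0791). The *Sfrp2* call ended without *F*-cKO replicate 1 or 2 or *M*-cKO replicate 1 or 2 (adjusted *P* = 0.0513, 0.0600, 0.0948 and 0.0796).

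R-spondins, which raise the amount of Wnt receptor at the cell surface, moved in different directions. *Rspo1* (chr4:124986401-125009102) was at 1.82, 1.80 and 0.744 FPKM in Ctrl, 2.63, 2.90 and 4.59 FPKM in *F*-cKO and 2.23, 3.12 and 4.55 FPKM in *M*-cKO. The lowest knockout library exceeded the highest Ctrl library, and replicate 3 was the highest of both knockouts and the lowest of Ctrl. The log2 fold change was 1.19 ± 0.33 in *F*-cKO (edgeR adjusted *P* = 0.0305) and 1.16 ± 0.33 in *M*-cKO (adjusted *P* = 0.0202). The *F*-cKO call ended without Ctrl replicate 3, *F*-cKO replicate 2 or *F*-cKO replicate 3 (adjusted *P* = 0.0702, 0.0603 and 0.0767), and the *M*-cKO call without *M*-cKO replicate 3 (adjusted *P* = 0.0833). *Rspo2* (chr15:43020788-43171594) was at 2.56, 1.96 and 2.59 FPKM in Ctrl, 1.97, 1.99 and 1.95 FPKM in *F*-cKO and 1.04, 1.50 and 1.88 FPKM in *M*-cKO. *M*-cKO lay below Ctrl, while the lowest Ctrl library lay among the *F*-cKO values. *Rspo2* fell in *M*-cKO by 0.69 ± 0.20 on the log2 scale (adjusted *P* = 0.0225), which ended without Ctrl replicate 1, Ctrl replicate 3, *M*-cKO replicate 1 or *M*-cKO replicate 2 (adjusted *P* = 0.0795, 0.0751, 0.0610 and 0.0637), and its value in *F*-cKO was −0.28 ± 0.13. The difference between the knockouts was not called (−0.43 ± 0.19, adjusted *P* = 0.125).

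*Rspo3*, the most abundant R-spondin, rose in *F*-cKO by a log2 fold change of 0.42 ± 0.12 (edgeR adjusted *P* = 0.0327) and was at −0.06 ± 0.11 in *M*-cKO, with −0.49 ± 0.11 between the knockouts (adjusted *P* = 0.00846). The *F*-cKO call ended without Ctrl replicate 2, Ctrl replicate 3, *F*-cKO replicate 2 or *F*-cKO replicate 3 (adjusted *P* = 0.0603, 0.102, 0.0800 and 0.0814). The direct call held with each library left out.

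Among the intracellular members, RNA of *Ctnnb1* rose in *F*-cKO and that of the axins in *M*-cKO. *Ctnnb1* RNA was at 159, 154 and 136 FPKM in Ctrl, 209, 195 and 204 FPKM in *F*-cKO and 165, 153 and 168 FPKM in *M*-cKO. *F*-cKO stood apart from both other groups, and *M*-cKO overlapped with Ctrl. The log2 fold change was 0.43 ± 0.07 in *F*-cKO (edgeR adjusted *P* = 0.00505) and 0.10 ± 0.07 in *M*-cKO (adjusted *P* = 0.293), and *M*-cKO was below *F*-cKO at −0.34 ± 0.06 (adjusted *P* = 0.00435). *Axin2*, a destruction complex gene that is itself a widely used transcriptional target of β-catenin, was at 7.43, 7.57 and 6.01 FPKM in Ctrl, 7.62, 8.49 and 8.09 FPKM in *F*-cKO and 8.83, 9.04 and 9.77 FPKM in *M*-cKO. The groups did not overlap, although the lowest *F*-cKO library exceeded the highest Ctrl library by little. *Axin2* was called in *M*-cKO (0.39 ± 0.09, adjusted *P* = 0.00965) and not in *F*-cKO (0.19 ± 0.10, adjusted *P* = 0.184), and the difference between the knockouts was not called (0.18 ± 0.07, adjusted *P* = 0.0936). *Axin1* rose in *M*-cKO by 0.33 ± 0.08 (adjusted *P* = 0.0127), with 0.15 ± 0.09 in *F*-cKO and an uncalled 0.17 ± 0.07 between the knockouts (adjusted *P* = 0.0777). *Apc* was not called (0.13 ± 0.07 in *F*-cKO, −0.05 ± 0.08 in *M*-cKO). Footprints did not show these rises as calls. *Ctnnb1* footprints in *F*-cKO were at 0.0025 ± 0.20 (edgeR adjusted *P* = 0.997), and at 0.15 ± 0.14 without *F*-cKO replicate 2 of Ribo-seq (adjusted *P* = 0.879). In *M*-cKO, *Axin2* footprints were at 0.15 ± 0.11 (adjusted *P* = 0.397) and *Axin1* footprints at 0.25 ± 0.09 (adjusted *P* = 0.0903).

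*Tcf7l1* (chr6:72626371-72789045), a factor of the TCF family known as a repressor of Wnt targets, was the TCF/LEF gene with the largest change. Its level was 2.37, 1.67 and 1.20 FPKM in Ctrl, 3.43, 3.07 and 3.68 FPKM in *F*-cKO and 3.19, 3.44 and 4.17 FPKM in *M*-cKO. Both knockouts lay above Ctrl and overlapped each other, with log2 fold changes of 0.94 ± 0.21 (edgeR adjusted *P* = 0.0147) and 1.03 ± 0.21 (adjusted *P* = 0.00372), and both calls held with each library left out. *Lef1*, an effector of hem-derived Wnt signals in the hippocampal primordium, was at 1.07, 1.10 and 0.796 FPKM in Ctrl, 1.23, 1.27 and 1.52 FPKM in *F*-cKO and 1.24, 1.44 and 1.54 FPKM in *M*-cKO, with every knockout library above Ctrl. Its log2 fold change was 0.50 ± 0.15 in *M*-cKO (adjusted *P* = 0.0268) and 0.43 ± 0.16 in *F*-cKO (adjusted *P* = 0.0786), and the knockouts differed by an uncalled 0.06 ± 0.14. The *M*-cKO call ended without Ctrl replicate 3, *M*-cKO replicate 2 or *M*-cKO replicate 3 (adjusted *P* = 0.0821, 0.0771 and 0.0767). *Tcf7* was called higher in *M*-cKO than in *F*-cKO by edgeR (0.46 ± 0.15, adjusted *P* = 0.0444) and not by DESeq2 (adjusted *P* = 0.0659). The edgeR call ended without *F*-cKO replicate 1 or 2 or *M*-cKO replicate 1, 2 or 3 (adjusted *P* = 0.0921, 0.138, 0.0804, 0.112 and 0.0850). *Tcf7l2* was at 0.28 ± 0.17 and 0.24 ± 0.17 and was not called.

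Of the 17 members called in *F*-cKO, 12 were called with every library left out in turn, and of the 14 called in *M*-cKO, 9 were. In the main edgeR fits, over all libraries of each comparison, 25 members were called in at least 1 of the 8 comparisons. Another 15 members tested in RNA-seq were called in none of these fits. With no filter on low counts edgeR called 21 members in *F*-cKO RNA-seq and 16 in *M*-cKO, against 17 and 14. All 9 libraries in 1 fit gave 19 and 15. Over all genes, the main fits called 1955 higher and 1621 lower in *F*-cKO, and 2630 and 2394 in *M*-cKO. With no filter these counts were 2320 and 2110, and 3123 and 2407. In 1 fit of all 9 libraries they were 2288 and 1711, and 2662 and 2202. Of the 15 members not called in the main fits, DESeq2 called *Wnt3* in *F*-cKO and *Fzd7* in *M*-cKO. The log2 fold changes of these 15 from Ctrl lay between −1.004 for *Wnt3* and 0.98 for *Wnt10a*, both in *F*-cKO, and with SEs of 0.32 and 0.55 a change in such members may not have been detectable. In the RefSeq gene models 22 members overlap another gene, 6 of them a protein-coding one, such as *Tcf7* with *Skp1*, *Wnt3* with *Wnt9b* and *Wnt2b* with *St7l*. The notes give no strand setting for the counts, so reads in such overlaps cannot be assigned to 1 gene with certainty.

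Other genes of the pathway were taken from fixed lists, whose counts stand beside 21.1% of all genes called in *F*-cKO and 29.6% in *M*-cKO. Over the pathway and marker lists together, 6 genes stand in 2 lists, among them *Apcdd1*, *Znrf3*, *Notum* and *Emx2*. The counts of different lists are therefore not fully separate. Of 15 widely used transcriptional targets outside the module that were tested, 4 were higher and 4 lower in *F*-cKO, and 7 were higher and 2 lower in *M*-cKO (median log2 fold changes 0.15 and 0.15). *Cdx1*, the other gene of that list, was at 0 in every RNA-seq library. *Ccnd1*, which encodes the G1 cyclin D1, rose by 0.54 ± 0.11 in *F*-cKO (edgeR adjusted *P* = 0.0122) and 1.15 ± 0.10 in *M*-cKO (adjusted *P* = 2.86e-05), and *Tnfrsf19* rose in *M*-cKO (0.47 ± 0.08). *Apcdd1*, a membrane inhibitor of the pathway, rose by 0.34 ± 0.07 and 0.51 ± 0.08. *Id2*, the most abundant gene of the list, was at 137, 136 and 159 FPKM in Ctrl, 108, 106 and 105 FPKM in *F*-cKO and 89.5, 87.3 and 93.8 FPKM in *M*-cKO. It was lower in both knockouts (−0.45 ± 0.07 and −0.69 ± 0.07), and its knockout libraries did not overlap with Ctrl. Also lower were *Nkd2*, a feedback inhibitor, in both knockouts (−0.82 ± 0.14 and −0.48 ± 0.12) and, in *F*-cKO, the Wnt-inactivating enzyme *Notum* (−1.81 ± 0.44). In *M*-cKO Ribo-seq 1 of 13 targets tested, *Ccnd1*, was called higher and 0 lower. Of all genes in that comparison 14.6% were called, 7.13% higher and 7.5% lower.

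Among 21 cytoplasmic transducers, 9 were higher and 1 lower in *F*-cKO and 6 higher and 2 lower in *M*-cKO. *Tnks2*, a tankyrase that marks axin for degradation, rose in both (0.42 ± 0.07 and 0.24 ± 0.07), while *Dvl1*, a Dishevelled gene, was lower in both (−0.28 ± 0.07 and −0.20 ± 0.06). *Siah1a* (0.35 ± 0.06) and *Amer1* (0.45 ± 0.09) rose in *M*-cKO, and *Csnk1e* fell in *M*-cKO by 0.16 ± 0.06. Of 14 nuclear co-factors, 6 were higher and 1 lower in *F*-cKO and 5 higher and 1 lower in *M*-cKO. The β-catenin co-activators *Bcl9l*, *Pygo1* and *Bcl9* were at 0.67 ± 0.07, 0.63 ± 0.07 and 0.50 ± 0.07 in *M*-cKO (edgeR adjusted *P* = 0.000109, 0.000112 and 0.000414) and at 0.24 ± 0.08, 0.28 ± 0.07 and 0.27 ± 0.07 in *F*-cKO, where *Bcl9l* was not called. *Hdac2* was lower in *M*-cKO (−0.27 ± 0.06) and the co-repressor *Tle2* in *F*-cKO (−0.41 ± 0.11).

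Of 12 planar cell polarity genes tested, 3 were higher and 1 lower in *F*-cKO and 2 higher and 2 lower in *M*-cKO. *Vangl2*, a core gene of that branch, rose in both knockouts (0.65 ± 0.08 and 0.73 ± 0.08), as did *Celsr2* (0.57 ± 0.07 and 0.25 ± 0.08). *Celsr1* rose in *F*-cKO (0.98 ± 0.16) and was at −0.18 ± 0.17 in *M*-cKO. *Prickle2* was lower in *F*-cKO (−0.40 ± 0.12), and *Prickle1* (−0.51 ± 0.09) and *Daam2* (−0.57 ± 0.10) were lower in *M*-cKO. Among 13 further receptors and their ubiquitin ligases, 2 were higher and 0 lower in *F*-cKO (*Ptk7* and *Kremen1*) and 3 higher and 0 lower in *M*-cKO, with *Ptk7* at 0.34 ± 0.08 and 0.39 ± 0.10, and with *Znrf3* (0.58 ± 0.14) and *Ror2* (0.66 ± 0.18) in *M*-cKO. Among 8 further antagonists, 1 was higher and 0 lower in *F*-cKO and 3 higher and 3 lower in *M*-cKO. There *Tpbg* (0.86 ± 0.12) and *Igfbp4* (0.41 ± 0.10) rose, and *Draxin* (−0.37 ± 0.07), *Dkkl1* (−1.58 ± 0.41) and *Frzb* (−0.97 ± 0.34) were lower. Of 4 genes for Wnt lipid modification, secretion and inactivation, *Notum* was lower in *F*-cKO and *Wls*, which carries Wnt proteins to the cell surface, was higher in *M*-cKO (0.43 ± 0.13). Of 21 transducers, 14 co-factors and 13 polarity genes tested, *M*-cKO Ribo-seq called *Dvl1*, *Bcl9*, *Bcl9l* and *Vangl2* higher and *Csnk1g1* and *Prickle1* lower. That comparison called 14.6% of all genes. *Dvl1* was thus called higher in Ribo-seq and lower in RNA-seq of *M*-cKO.

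Of the 51 members 33 were matched by symbol in a table of RefSeq sequences (GRCm38.p6) around transcription starts. The core letters of the TCF/LEF recognition motif, CTTTGA, were searched on both strands in the 250 bases before each start and occurred in 5 of 33 members and in 15.8% of all 27025 genes with such a window. The motif with 1 more base, CTTTGAT, which contains the first, occurred in 2 members and in 3.72% of genes. Of the 5 members with CTTTGA, *Lef1* and *Fzd1* were called in RNA-seq, and their windows are shown with the motif or its reverse complement in capitals, 5′ to 3′ on the strand of the gene. The *Lef1* window (chr3:131156044-131156293, plus strand, 2 matches) precedes a start inside the gene, and the *Fzd1* window (chr5:4758217-4758466, minus strand, 1 match) precedes the start of its model. A match is a run of letters and does not show binding.
Lef1: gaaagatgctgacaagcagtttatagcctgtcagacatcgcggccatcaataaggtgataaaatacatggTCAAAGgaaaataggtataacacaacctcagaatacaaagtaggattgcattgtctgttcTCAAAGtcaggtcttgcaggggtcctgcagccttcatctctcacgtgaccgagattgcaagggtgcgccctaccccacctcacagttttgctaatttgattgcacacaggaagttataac
Fzd1: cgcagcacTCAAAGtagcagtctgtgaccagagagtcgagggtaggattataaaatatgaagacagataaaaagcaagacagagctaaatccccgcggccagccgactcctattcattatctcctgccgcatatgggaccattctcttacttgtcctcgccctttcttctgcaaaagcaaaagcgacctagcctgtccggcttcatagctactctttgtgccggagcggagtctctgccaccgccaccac

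Footprints were counted in all Ribo-seq libraries for 31 of the 51 members, and the count table left the other 20 blank in 8 of 9 libraries. Members for secreted and membrane proteins had lower ratios of footprints to RNA than the median gene. The ratio of mean footprint RPKM to mean RNA FPKM in Ctrl had a median of 0.203 over 20 such members with at least 1 FPKM, from 0.0721 for *Fzd9* to 0.444 for *Lrp6*. Over 6 intracellular members the median was 0.799, from 0.383 for *Tcf7l1* to 3.30 for *Ctnnb1*, and over all 12952 genes at that level it was 0.757. Other lists of mostly membrane or secreted proteins differed in this. The 13 further receptors summed to 6.82, 8.11 and 7.67 RPKM against 42.4, 42.8 and 39.6 FPKM in Ctrl, and the 9 further antagonists to 16.4, 17.2 and 15.6 RPKM against 106, 110 and 95.8 FPKM, and the 8 endothelial markers had lower RPKM than FPKM as well. The 10 markers of meninges and mesenchyme, collagens among them, went the other way at 28.7, 52.0 and 43.5 RPKM against 17.5, 34.4 and 18.8 FPKM, as did *Ttr*, a secreted protein's gene, at 453, 1962 and 573 RPKM against 68.1, 788 and 312 FPKM. Both units count whole genes, and the ratio carries no test.

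In *M*-cKO Ribo-seq, 1 of 30 members tested was higher and 1 lower, with a median log2 fold change of 0.15 against 0.00 over all 14314 genes, of which 14.6% were called (7.13% higher and 7.5% lower). *Fzd2* footprints were at 0.973, 1.11 and 1.14 RPKM in Ctrl and 2.78, 2.47 and 1.92 RPKM in *M*-cKO, and all *M*-cKO libraries lay above Ctrl (log2 fold change 1.17 ± 0.21, edgeR adjusted *P* = 0.0167). *Dkk3* footprints were at 2.69, 2.48 and 3.02 RPKM in Ctrl and 1.12, 1.03 and 1.84 RPKM in *M*-cKO, and all *M*-cKO libraries lay below Ctrl (−1.02 ± 0.25, adjusted *P* = 0.0348). Both genes had RNA changes of like size in *M*-cKO (1.17 and −1.08). Neither call held under every omission. That of *Fzd2* ended without Ctrl replicate 1, 2 or 3 (adjusted *P* = 0.0656, 0.0810 and 0.0531), and that of *Dkk3* without Ctrl replicate 1, 2 or 3 or *M*-cKO replicate 1 or 2 (adjusted *P* = 0.0959, 0.105, 0.114, 0.0920 and 0.0772). Calls over all genes moved as well, from 1020 higher and 1073 lower to 230 and 160, 115 and 62, and 269 and 192 without Ctrl replicates 1, 2 and 3, and to 500 and 380, and 771 and 524, without *M*-cKO replicates 1 and 2. Without *M*-cKO replicate 3, 4 members were higher and 1 lower, beside 1303 higher and 1244 lower genes. With all 9 Ribo-seq libraries in 1 fit, edgeR called 0 members, 29 genes higher and 6 genes lower.

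In *M*-cKO Ribo-seq, 11 of the 30 members had an unadjusted *P* below 0.05, the 2 called ones among them, as had 4876 of all 14314 genes. *Tcf7l1* footprints were at 0.677, 0.627 and 0.702 RPKM in Ctrl and 1.61, 2.54 and 0.891 RPKM in *M*-cKO without overlap (1.35 ± 0.39, edgeR adjusted *P* = 0.0551), and *Wnt7a* was at 0.75 ± 0.25 (adjusted *P* = 0.0787). DESeq2 called both of these in addition, 4 members in all. *Ctnnb1* footprints were at 506, 487 and 486 RPKM in Ctrl and 445, 326 and 437 RPKM in *M*-cKO, all below Ctrl (−0.29 ± 0.11, adjusted *P* = 0.123). *Fzd1* was at 1.85, 19.9 and 2.06 RPKM in *M*-cKO against 1.94, 1.69 and 1.29 RPKM in Ctrl, so its log2 fold change of 2.32 ± 0.91 rested on replicate 2. Without *M*-cKO replicate 2, 1 member was higher and 0 lower and the members' median was 0.04, beside 9.03% of all genes called.

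In *F*-cKO Ribo-seq, 0 of 30 members and 0.0% of 14335 genes were called by edgeR, while 4 members and 318 genes had an unadjusted *P* below 0.05, and DESeq2 called 0 members and 6 genes. The members' median log2 fold change was nevertheless 0.97 against 0.05 over all genes. This difference rested on *F*-cKO replicate 2. In it, footprints on the 20 secreted or membrane members were at a median of 4.61 times the Ctrl mean, from 1.80 times for *Wnt4* to 11.2 times for *Fzd9*, and the same members were at 1.04 and 1.07 times in replicates 1 and 3. The 6 intracellular members were at 0.990 times in replicate 2, and all genes with at least 1 FPKM at 0.854 times. *Sfrp1*, for example, was at 4.51, 4.85 and 4.23 RPKM in Ctrl and at 6.14, 25.6 and 4.44 RPKM in *F*-cKO. *Lrp6* was at 2.31, 2.65 and 2.58 RPKM in Ctrl and at 2.65, 11.7 and 2.52 RPKM in *F*-cKO. Without *F*-cKO replicate 2 the members' median was 0.13, 0 members were called by edgeR (1 with an unadjusted *P* below 0.05), and of all genes 1, *Fto*, was called.

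**Figure D3:**
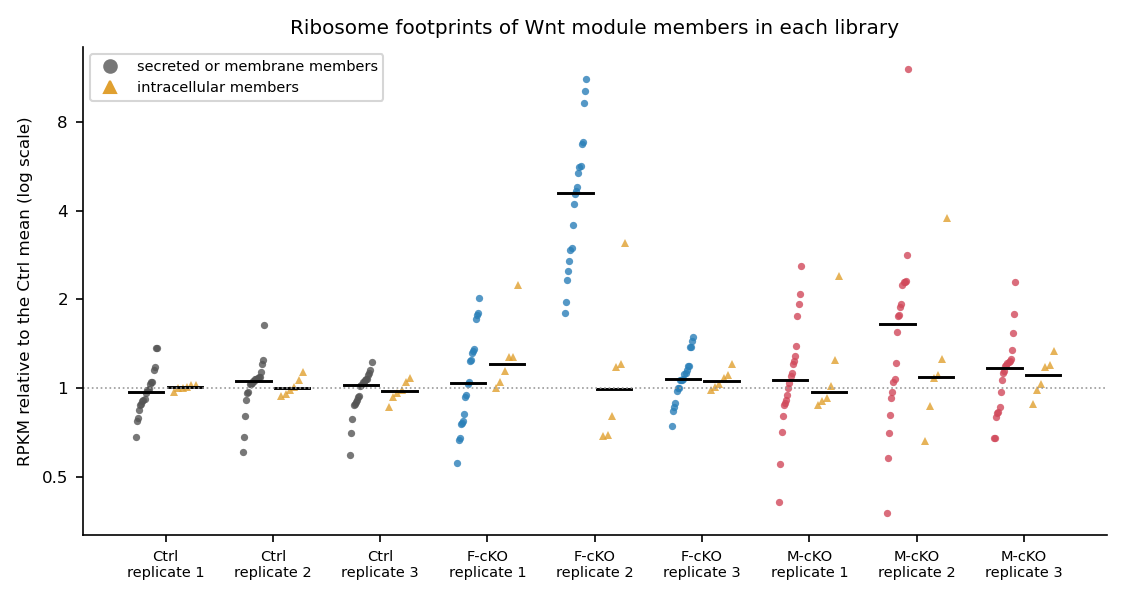
Footprint RPKM of each member with at least 1 FPKM in Ctrl relative to its Ctrl mean, on a log scale, in each of the 9 Ribo-seq libraries, for 20 secreted or membrane members (circles) and 6 intracellular members (triangles), with lines at the medians. The secreted or membrane members of *F*-cKO replicate 2 have a median of 4.61, while all other medians lie between 0.969 and 1.66.

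Between the 2 knockouts, edgeR on Ribo-seq called 0 of 30 members and 0.0% of 14262 genes (1 member and 1154 genes with an unadjusted *P* below 0.05), and DESeq2 called 0 members and 200 genes. The members' median log2 fold change moved from −0.71 to 0.10 when *F*-cKO replicate 2 was left out, and edgeR then called 0 members (0 with an unadjusted *P* below 0.05) and 5 genes. Footprints of endothelial markers shared the profile of that library, with a summed RPKM of 7.67, 10.2 and 12.5 in Ctrl and 6.07, 95.4 and 10.2 in *F*-cKO, and with *Cldn5*, a membrane protein gene of the tight junction and the most abundant of the 8, at 46.5 RPKM in replicate 2 and at 2.83 to 5.19 RPKM in Ctrl. Summed endothelial RNA was at 49.7, 43.4 and 43.6 FPKM in *F*-cKO and at 58.7, 63.0 and 66.4 FPKM in Ctrl. In replicate 2 the 13 further receptors summed to 32.7 RPKM, against 6.82 to 8.11 RPKM in Ctrl. The 9 further antagonists were at 78.0 RPKM against 15.6 to 17.2 RPKM, and the 4 genes for Wnt lipid modification, secretion and inactivation at 13.2 against 2.38 to 3.67 RPKM. The meningeal list was at 52.4 RPKM against 28.7 to 52.0 RPKM. Footprints of cytoplasmic transducers were at 541, 520 and 489 RPKM in Ctrl and at 504, 370 and 506 RPKM in *F*-cKO. What sets replicate 2 apart was not tested.

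Translational efficiency (TE) was tested as the interaction of assay and genotype over 12 libraries. In *M*-cKO, 0 of 31 members were called by edgeR, beside 2.07% of 14328 genes (1.24% higher and 0.824% lower), and 5 members and 2846 genes had an unadjusted *P* below 0.05. DESeq2 called 0 members and 1025 genes. The count over all genes, 178 higher and 118 lower, changed with single libraries. Leaving out RNA-seq Ctrl replicates 1, 2 and 3 gave 52 and 35, 8 and 4, and 11 and 5, and leaving out RNA-seq *M*-cKO replicates 1, 2 and 3 gave 7 and 3, 6 and 4, and 34 and 22. Without Ribo-seq Ctrl replicate 1 or 2 there were 36 and 19 or 6 and 5, and all 18 libraries in 1 fit gave 5 and 2. Without Ribo-seq *M*-cKO replicate 3 there were 449 and 385, and 1 member was then called higher. The members with the smallest *P* values were *Wnt8b* (log2 TE change −1.19 ± 0.39, adjusted *P* = 0.121) and *Sfrp2* (0.72 ± 0.24, adjusted *P* = 0.127), and *Ctnnb1* was at −0.33 ± 0.14 (adjusted *P* = 0.208). For *Mettl3* itself the log2 TE change was −0.998 ± 0.13 (adjusted *P* = 0.00927). Of the other pathway lists, edgeR called 1 of 21 cytoplasmic transducers, *Dvl1*, higher in TE in *M*-cKO and no further gene. In *F*-cKO, 0 of 31 members and 0.0% of 14322 genes were called by edgeR, 2 members and 1244 genes had an unadjusted *P* below 0.05, and DESeq2 called 0 members and 44 genes. The members' median log2 TE change in *F*-cKO moved from 0.64 to −0.22 without Ribo-seq replicate 2. There edgeR called 0 members and 0 genes (6 and 1807 with an unadjusted *P* below 0.05). *Ctnnb1* was at −0.47 ± 0.18 in *F*-cKO (edgeR adjusted *P* = 0.561), and at −0.28 ± 0.14 without that replicate (adjusted *P* = 0.456).

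Markers of other tissues and cells that cortical samples can hold were examined in the same libraries. Ganglionic eminence and its neurons, which lie next to the cortex and arise outside the *Emx1* lineage, were represented by 10 genes with a summed level of 91.0, 88.8 and 88.7 FPKM in Ctrl, 121, 98.4 and 86.2 FPKM in *F*-cKO and 177, 163 and 128 FPKM in *M*-cKO. All 10 were called higher in *M*-cKO (edgeR, median log2 fold change 1.08), 5 were higher and 0 lower in *F*-cKO, and 6 were higher in *M*-cKO Ribo-seq. Compared directly, 8 of the 10 were higher in *M*-cKO than in *F*-cKO and 0 lower, with a median of 0.70. Of all genes, 15.5% were called higher in *M*-cKO RNA-seq, 11.5% in *F*-cKO RNA-seq, 7.13% in *M*-cKO Ribo-seq and 13.1% in the direct comparison. *Dlx1* was the most abundant of the 10 markers at 34.7, 36.0 and 36.1 FPKM in Ctrl and 63.5, 58.0 and 48.8 FPKM in *M*-cKO. In thalamus and habenula markers *Barhl2* was the most abundant of 7, at 1.10, 1.49 and 1.04 FPKM in Ctrl and 3.20, 3.64 and 1.97 FPKM in *M*-cKO, where it was called higher. Of these 7 genes 1 reached 1 FPKM in Ctrl and *Gbx2*, *Shox2*, *Pou4f1* and *Irx2* had too few reads to test. That list summed to 1.51, 1.85 and 1.43 FPKM in Ctrl, 2.87, 2.59 and 1.58 FPKM in *F*-cKO and 4.40, 4.75 and 2.63 FPKM in *M*-cKO. *Fzd2*, *Fzd9* and *Axin2* were highest in *M*-cKO as well. Within *M*-cKO both lists were lowest in replicate 3, where *Fzd9* and *Axin2* were highest, while *Fzd2* was highest in replicate 2. Within *F*-cKO both lists were highest in replicate 1, where *Fzd2*, *Fzd9* and *Axin2* were lowest. The part of ganglionic eminence and thalamus in the levels of these members was not tested.

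In RNA-seq, the 8 endothelial genes summed to 44.7, 55.9 and 62.4 FPKM in *M*-cKO, with 2 lower in *F*-cKO (*Cldn5* and *Slco1c1*) and 1 lower in *M*-cKO (*Slco1c1*). The 7 microglial genes summed to 25.8, 34.1 and 28.4 FPKM in Ctrl, 27.4, 20.2 and 21.1 FPKM in *F*-cKO and 24.5, 33.7 and 38.8 FPKM in *M*-cKO, led by *C1qb* at 8.41, 10.3 and 8.94 FPKM in Ctrl, and 0 were called in either knockout by edgeR (1 with an unadjusted *P* below 0.05 in each, and 1 in *F*-cKO and 0 in *M*-cKO by DESeq2). The 6 erythroid genes summed to 432, 795 and 452 FPKM in Ctrl, 380, 324 and 402 FPKM in *F*-cKO and 443, 528 and 640 FPKM in *M*-cKO, led by *Hba-a1* at 236, 458 and 257 FPKM in Ctrl, and *Hbb-bs* was lower in *F*-cKO (−0.71 ± 0.18). Between the knockouts, 1 of 7 microglial genes (*C1qa*) and 4 of 6 erythroid genes were called higher in *M*-cKO, and 0 lower. Of the 8 endothelial genes 1 was higher there (*Cldn5*) and 1 lower (*Slco1c1*). That comparison called 27.4% of all genes, and those with Ctrl called 21.1% in *F*-cKO and 29.6% in *M*-cKO. No gene of the endothelial, microglial, erythroid, ganglionic eminence or thalamic lists was at 0 in all libraries. The part of vessels, microglia and blood in the members' levels was not tested.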

How the data were processed

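RNA-seq and Ribo-seq of 9 libraries each were analysed from the tables the authors deposited. For RNA-seq the authors aligned reads with HISAT2 2.0.5 to mm10 and deposited counts per gene and FPKM made from them. For Ribo-seq the authors mapped fragments with TopHat2, counted them with HTSeq and deposited counts and RPKM. The submitters' notes also name DESeq2 1.14.1. In the deposited Ribo-seq counts 14348 genes have a value in every library and 40490 are blank in 8 of 9, and for 17726 of these a whole count could be recovered from RPKM within 0.02, including all 20 blank members, which was used in tests only as an alternative chosen after seeing the data, as was a TE filter within each assay, and for the fragments printed for blank members. The median of all genes shows the scaling of each comparison.

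Differences in counts were tested with edgeR 4.0.16 under R 4.3.3 (filterByExpr with a minimum count of 10, TMM scaling, quasi-likelihood test, Benjamini-Hochberg adjustment over all genes), each comparison over its own 6 libraries and TE over 12. Alternatives were DESeq2 1.42.0, RLE scaling, no filter, 1 fit over all libraries of an assay, a block for replicate number, limma 3.58.1 on log2 of deposited values plus 0.1 or 1, and each library left out in turn. The code was tested on simulated data. Symbols matched 54723 of 55153 genes. Positions and sequences are from RefSeq GRCm38.p6.

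Members and lists were chosen with earlier results of these data known. Members are named with values when called in any of the 8 comparisons, and with every library when called at an absolute log2 fold change of at least 0.5 against Ctrl. *Ctnnb1*, *Axin2*, *Lef1*, *Tcf7l2* and the most abundant member of each role are always named, as are the targeted genes, the most abundant gene of each marker list, and up to 3 called genes in each direction of each other list by adjusted *P*. Genes named beyond this were chosen after their values were seen.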

Additional observations from a re-analysis of the deposited data

Results flagged for a closer look

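Members left blank in the Ribo-seq count table have values in the RPKM table. In 6 cases every library of a knockout lay above every Ctrl library, while in 2 cases every library lay below. How often other blank genes separate in this way was not counted, so the cases are no result about the members. With 3 against 3 libraries the smallest *P* of an exact permutation test is 0.1. The fragments given here were recovered from RPKM. *Sfrp4* had a mean of 0.165 RPKM in *F*-cKO and 0.132 RPKM in *M*-cKO against 0.0330 RPKM in Ctrl, from 32, 25 and 11 fragments over the 3 libraries of each group, and its Ctrl libraries were at 0.0322, 0.00950 and 0.0573 RPKM. *Wnt6* had 0.109 RPKM in *F*-cKO and 0.213 RPKM in *M*-cKO against 0.0679 RPKM in Ctrl, from 14, 22 and 12 fragments. *Rspo1*, whose RNA was higher in both knockouts, had 0.376 RPKM in *M*-cKO against 0.202 RPKM in Ctrl, from 35 and 32 fragments. *Wnt9b* had 0.0448 RPKM in *M*-cKO against 0.00293 RPKM in Ctrl, from 8 fragments and 1 fragment. Of the 8, 6 were in *M*-cKO replicate 2, at 0.109 RPKM, and replicates 1 and 3 were at 0.0134 and 0.0117 RPKM. The 2 cases below Ctrl are both of *Wnt10b*, at 0 RPKM in all 6 knockout libraries and at 0.0198, 0.0233 and 0.0117 RPKM in Ctrl, from 5 fragments. These counts are small and the values carry no test.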

How the results depend on the processing

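No called member changed its direction under any of the alternatives. In RNA-seq, limma on log2 of FPKM plus 0.1 or plus 1 called 11 and 11 members in *F*-cKO against 17 by edgeR. In *M*-cKO it called 9 and 9 against 14. Over all genes, limma called 1195 and 1132 higher in *F*-cKO against 1955 by edgeR, and 771 and 725 lower against 1621. In *M*-cKO 2151 and 2149 genes were higher against 2630, and 1750 and 1735 lower against 2394. In the comparison of *M*-cKO with *F*-cKO, leaving out each library in turn gave 8 to 11 members against 13. Over all genes it gave 1442 to 2342 higher and 1325 to 2224 lower, against 2196 and 2403. For *M*-cKO Ribo-seq, where 2 members were called, DESeq2 called 4, all 9 libraries in one fit 0 and limma 1 with each pseudocount, and leaving out each library gave 0 to 5. For TE in *M*-cKO, leaving out each library gave 0 to 1 against 0. In limma, *M*-cKO Ribo-seq had 452 genes higher and 237 lower with 0.1 added and 372 and 190 with 1 added. By edgeR there were 1020 and 1073, and by DESeq2 1602 and 1505. The cause of these differences was not tested.

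With the replicate number as a replicate block, 13 members were called in *F*-cKO RNA-seq (1275 genes higher and 855 lower), 13 in *M*-cKO RNA-seq (2405 and 2046), 11 between the knockouts (1827 and 1883), 2 in *M*-cKO Ribo-seq (681 and 638) and 0 in the other comparisons (9 and 1 for TE in *M*-cKO and 0 elsewhere). Of the 44 calls of members in RNA-seq, 43 were also made by DESeq2, 44 with RLE scaling, 43 with no filter, 44 with all 9 libraries in one fit, 37 with the replicate block and 30 by limma. Over all omissions of 1 library, 211 of 264 RNA-seq calls and 4 of 12 Ribo-seq calls were kept. Ribo-seq depth was lowest in *F*-cKO replicate 2, at 10973699 fragments, and 20 members were blank in the Ribo-seq count table in 8 of 9 libraries.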

Other observations

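*Celsr3*, a planar cell polarity gene, had 0 RNA-seq reads in 8 of 9 libraries and at most 2 in the other, while its Ribo-seq counts were between 332 and 1560 fragments in every library. Of 14348 genes counted in all Ribo-seq libraries, 198 had fewer than 10 RNA-seq reads in each library and at least 100 fragments in each, and 0 of the members were among them.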
